A study of Mus musculus with 14 samples.

Results

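The regions described are EBF1 sites at which the chromatin remodeller Brg1 was called whether or not EBF1 carried its C-terminal domain. They are peaks of the EBF1 list from A-MuLV pro-B cells with wild-type (wt) EBF1, on chromosomes 1 to 19, X and Y. Each overlapped by at least 1 bp a peak of 3 further A-MuLV lists: EBF1 with the dC form, Brg1 with wt and Brg1 with dC. Of 6155 EBF1 wt peaks, 4719 were also called with EBF1 dC, and 2593 of these met the full rule (54.9% of the shared sites and 42.1% of all EBF1 wt peaks). They are called kept sites below. Among the other shared sites, 1037 had a Brg1 peak with wt and not with dC (lost sites), 881 had Brg1 with neither form, and 208 had it with dC alone. The kept sites were chosen by the peak calls of the 4 A-MuLV lists, so the values of those lists are given as a description. The 5 fetal liver Brg1 lists, the position in the genome and the sequence played no part in the choice.

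EBF1 is a transcription factor that binds DNA as a dimer and starts the B-cell programme in lymphoid progenitors, together with Pax5 and the E proteins. Brg1 (gene Smarca4) is the motor subunit of BAF and PBAF complexes, which use ATP to move or evict nucleosomes and are needed for early B-cell development. Active promoters often hold a remodeller in many cell types, whereas distal elements of a lineage tend to hold one only in that lineage.

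The study addressed the part of the EBF1 C-terminal domain in placing Brg1. The fetal liver cells were EBF1-/- c-kit+ lymphocyte progenitors of C57BL/6 embryos of day 16 to 18, transduced and grown for 14 to 20 days on OP9 stroma with IL7, SCF and Flt3 ligand as the protocols name them. They received an empty vector (pMys_IRES_GFP), EBF1 wt, EBF1 dC (C-terminal domain deleted), EBF1 dPLD (residues 480 to 520 deleted) or F-GATA3 (the C-terminal domain replaced by the TA1 domain of GATA3), all from a retroviral vector with GFP. Per the labels, wt and F-GATA3 cells were at the pro-B stage, dC and dPLD cells were partly blocked before it and empty-vector cells were blocked before it. The effect of an EBF1 form on Brg1 and that of the stage its cells reached cannot be told apart. The A-MuLV cells were pro-B cells from EBF1 fl/fl fetal liver of C57BL/6 mice, transformed by the Abelson virus, with the endogenous EBF1 replaced by retroviral wt or dC. EBF1 was measured in the A-MuLV lists alone, so whether each form bound the kept sites in fetal liver cells was not measured. Each group had 1 library and no replicate, so no test was made across conditions, and intervals cover counting error only. Every difference compares these libraries, not the conditions.

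The sequences of kept sites could be read where they reached a promoter window of RefSeq (GRCm38.p6, 250 bases before to 50 bases after a start). EBF1 is known to bind a palindrome of 2 arms, TCCC and GGGA, spaced by 2 bases (TCCCNNGGGA, which reads alike on both strands). Of the kept sites at promoters of protein-coding genes that held it, the 4 with the highest EBF1 wt fold are shown first, with the palindrome in capitals. A site at the non-coding gene Gm20485 (fold 30.8) would rank among these 4 and is not shown. Each is written 5′ to 3′ on the strand of its gene, and stretches within an annotated gene are limited to 30 bases.

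Hdlbp, chr1:93478343-93478372, minus strand: gtggtgcctgTCCCTGGGGAcgtggccttc
Mphosph8, chr14:56668096-56668215, plus strand: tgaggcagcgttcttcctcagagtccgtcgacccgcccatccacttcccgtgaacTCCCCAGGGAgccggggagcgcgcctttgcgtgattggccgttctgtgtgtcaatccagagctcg
Ppp1r16b, chr2:158667077-158667106, plus strand: cccaccccttTCCCCCGGGAgctgaggctc
Hip1r, chr5:123973378-123973497, plus strand: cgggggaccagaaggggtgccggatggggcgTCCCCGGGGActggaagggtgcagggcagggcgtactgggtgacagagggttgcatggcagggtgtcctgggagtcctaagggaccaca

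Of the B-cell genes listed below, 10 had a promoter window that overlapped a kept site, and 3 of these had a match within the peak that was at most 1 base off the palindrome. Cd22 and Foxo1 held the palindrome itself and Ptpn6 a match 1 base off. That is no higher a share than over all 527 kept windows, of which 50.5% had such a match anywhere in the window. The 3 are shown as examples at B-cell promoters, and they were picked with their values known.

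Cd22, chr7:30879058-30879087, minus strand: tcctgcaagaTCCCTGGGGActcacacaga
Foxo1, chr3:52268190-52268309, plus strand: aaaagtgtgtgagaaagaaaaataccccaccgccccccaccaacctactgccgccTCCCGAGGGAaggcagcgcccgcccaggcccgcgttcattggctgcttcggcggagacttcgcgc
Ptpn6, chr6:124738752-124738871, minus strand: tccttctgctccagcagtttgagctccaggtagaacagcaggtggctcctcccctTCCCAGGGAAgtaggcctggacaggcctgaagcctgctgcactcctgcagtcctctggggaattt

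The other 7 were Cd79a, Igll1, Vpreb1, Vpreb2, Plcg2, Vav1 and Pik3ap1. For Cd79a, Igll1 and Vpreb1, the 60 bases around the EBF1 summit lay before the start and outside any annotated gene, and they are shown with every arm in capitals. Single arms are common: 52.6% of all 32851 promoter windows held at least 1 in the 60 bases before the start.

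Cd79a, chr7:24897307-24897366, plus strand: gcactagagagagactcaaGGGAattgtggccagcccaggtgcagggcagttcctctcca
Igll1, chr16:16864175-16864234, minus strand: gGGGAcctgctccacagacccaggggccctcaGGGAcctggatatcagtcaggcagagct
Vpreb1, chr16:16869369-16869428, minus strand: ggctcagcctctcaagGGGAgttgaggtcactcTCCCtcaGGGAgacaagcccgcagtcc

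The Cd79a stretch held 1 arm, the Igll1 stretch 2 and the Vpreb1 stretch 3, in none of these spaced by 2 bases as in the palindrome.

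The kept sites were occupied by Brg1 in fetal liver cells with every EBF1 form, and in a minority without EBF1. With EBF1 wt, 2435 of the 2593 kept sites overlapped a fetal liver Brg1 peak (93.9%, exact Clopper-Pearson 95% interval 92.9 to 94.8%), against 66.9% of all EBF1 wt peaks. With dC it was 2268 (87.5%, 86.1 to 88.7%; all peaks 52.5%), with dPLD 2380 (91.8%, 90.7 to 92.8%; all peaks 59.2%) and with F-GATA3 2325 (89.7%, 88.4 to 90.8%; all peaks 62.9%). The empty-vector library had a peak at 840 (32.4%, 30.6 to 34.2%; all peaks 17%). The shares over all peaks include the kept sites. The kept sites thus stood above the whole EBF1 list in each fetal liver library, and the 4 libraries with an EBF1 form ranged from 87.5% to 93.9%. Empty-vector peaks at kept sites were fewer and stood lower in their own list: their median fold of 5.94 was at percentile 44.3 of that list, whereas the median of 10.9 in the wt list was at percentile 82.7. The fold is the authors' value per peak and is used here within 1 list at a time. The lists differed in length, from 17687 peaks (empty vector) to 30301 (dC), and the sequencing depth behind them is unknown, so the absence of a call does not show the absence of Brg1. Held to the length of the shortest list, the fetal liver lists had a peak at 86.2% (wt), 75.3% (dC), 83.7% (dPLD) and 82.7% (F-GATA3) of the kept sites. Asking for Brg1 summits within 200 bp of the EBF1 summit in every list left 1929 kept sites, of which 17.5% had an empty-vector peak.

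**Figure D1:**
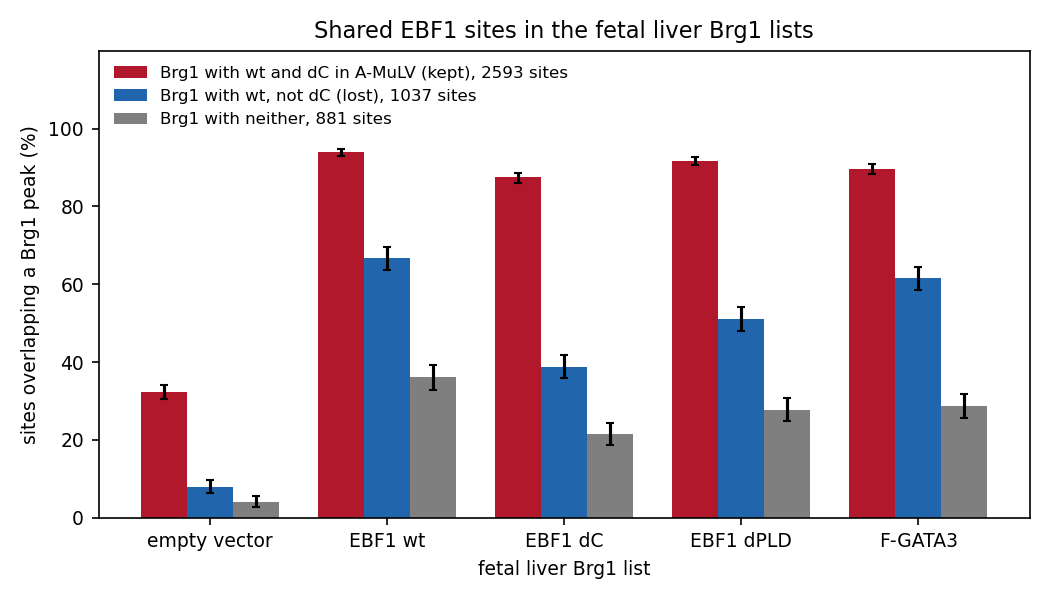
Share of shared EBF1 sites (y axis, percent) that overlapped a Brg1 peak in each of the 5 fetal liver lists (x axis), for kept sites, lost sites and sites without A-MuLV Brg1. Bars are shares in 1 library each and error bars are exact 95% intervals for counting error. Kept sites stood at 87.5% or higher with each EBF1 form and at 32.4% with the empty vector.

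Kept sites carried fetal liver Brg1 more often than lost sites in all 5 libraries, by most in the dC library. In that library the lost sites were called at 38.9%, a difference of 48.6 points (95% interval 45.3 to 51.8, Newcombe). It was 40.8 points with dPLD (37.5 to 44.0), 28.1 with F-GATA3 (25.0 to 31.3), 27.2 with wt (24.2 to 30.2) and 24.5 with the empty vector (22.0 to 26.8). Neighbouring values of that order (F-GATA3, wt and empty vector) had overlapping intervals. So sites split by dC in the transformed line were also split in the fetal liver dC library, which had no part in the split. Sites that had no Brg1 in A-MuLV cells were lower still, from 4.09% with the empty vector to 36.1% with wt. The size of the difference moved with the threshold. Where A-MuLV Brg1 peaks needed a −log10 q of at least 10, there were 1101 kept and 1132 lost sites, and the difference was 28.3 points with dC, 20.4 with dPLD, 16.5 with the empty vector, 12.3 with wt and 11.9 with F-GATA3. Where every list needed a −log10 q of at least 20, 312 kept and 513 lost sites remained. The differences were then 25.2 (dC), 16.7 (dPLD), 11.0 (empty vector), 6.94 (F-GATA3) and 6.29 points (wt). In each of the 8 alternatives that gave all 5 differences, the dC library had the largest value. With lists of equal length its lead over dPLD was small and the separate intervals overlapped: 49.8 points (46.0 to 53.3) against 47.4 (43.5 to 51.2). Both are over the same sites, and no interval was computed for the lead itself. With the fetal liver lists alone held to equal length the differences were 50.9 (47.7 to 53.9) with dC and 48.8 (45.5 to 52.0) with dPLD.

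Kept and lost sites had similar median EBF1 wt folds (10.9 and 10.4) but differed in the median EBF1 dC fold (15.9 and 9.86), in the median A-MuLV Brg1 wt fold (8.26 and 6.12) and in distance from a start, so the difference was taken within classes of each. Within quartiles of the EBF1 dC fold among shared sites, the dC difference was 45.2 points (38.7 to 50.9), 49.4 (43.1 to 55.2), 47.9 (40.2 to 55.03) and 44.5 (34.7 to 53.9) from lowest to highest. With dPLD it was 43.0 (36.9 to 48.4), 38.9 (32.8 to 44.8), 35.7 (28.4 to 43.1) and 33.3 (24.1 to 43.1) in that order. Each of these intervals overlapped that with dC. The difference with wt was 31.5 points in the lowest of these quartiles (25.8 to 36.7) and 19.99 in the highest (12.4 to 29.3). Over all sites the dC difference was 48.6 points. The quartiles were wide (18.6 to 77.5 in the highest), so they did not match peak height closely, and the EBF1 dC list helped to choose the kept sites. Whether EBF1 dC peak height underlies the difference was not tested. In the lowest quartile of EBF1 wt fold among shared sites (4.16 to 7.55), the dC library had a peak at 90.7% of kept and 49.8% of lost sites. In the highest quartile (14.4 to 89.6) it had one at 83.3% of kept and 22.5% of lost sites, so the difference went from 40.9 points (33.8 to 47.8) to 60.8 points (54.7 to 66.0). With F-GATA3 the difference was 35.9 points in the lowest quartile (28.7 to 42.9) and 27.0 in the highest (21.0 to 33.3). With dPLD it was 36.0 points in the lowest (29.2 to 42.9) and 47.7 in the highest (41.2 to 53.8). Kept and lost sites thus stood farther apart with dC at the highest EBF1 peaks than at the lowest, with intervals that did not overlap. The 2 F-GATA3 intervals overlapped, and so did the 2 dPLD intervals. Within quartiles of A-MuLV Brg1 wt fold, the dC difference was 41.3, 51.1, 54.0 and 54.5 points from lowest to highest, and that with wt was between 24.5 and 27.4. Among sites farther than 1 kb from a listed start the difference with dC was 47.7 points (43.7 to 51.6), and with wt it was 26.6 (22.9 to 30.4). With dPLD it was 40.7 (36.7 to 44.6), an interval that overlapped that with dC. Within 1 kb of a start, where 593 kept and 72 lost sites lay, it was 27.5 with dC (18.1 to 38.8) and 22.8 with wt (14.4 to 33.8). The dC and wt intervals overlapped near starts and did not overlap away from them. Near starts the kept sites were called at 98.3% (dC) and 99.2% (wt), close to the ceiling, and the lost sites at 70.8% and 76.4%. Farther from starts the lost sites were called at 36.2% with dC and 65.1% with wt. The smaller dC difference near starts thus went with a larger called share of lost sites, above which the kept sites had little room. Whether the split is weaker at starts was not tested.

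**Figure D2:**
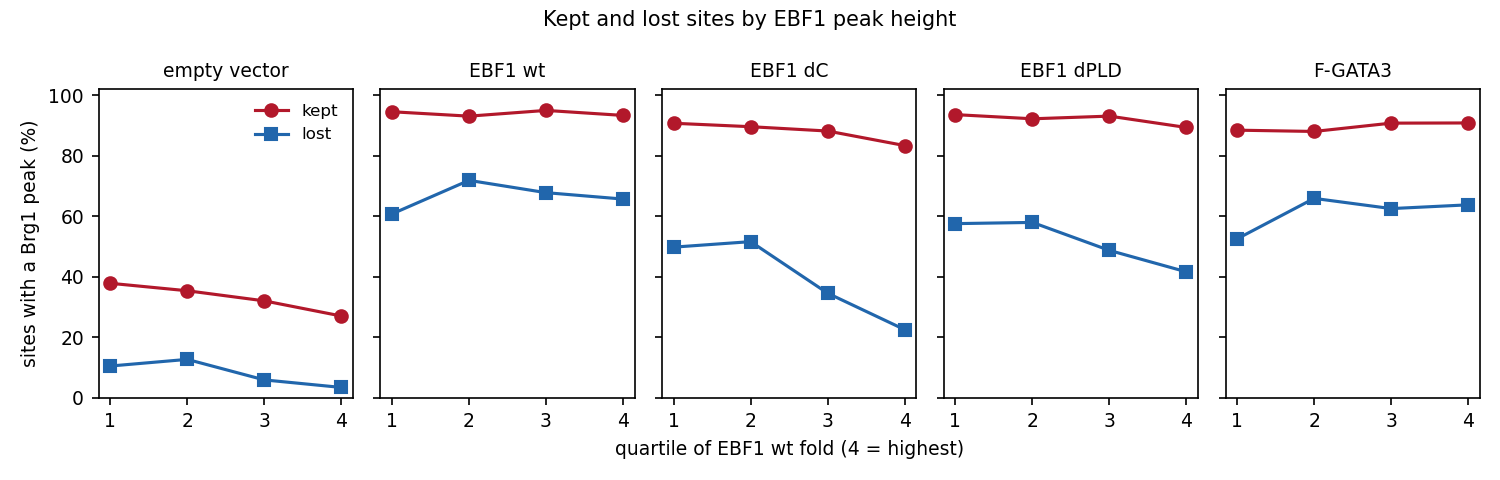
Share of kept and lost sites with a fetal liver Brg1 peak (y axis, percent) by quartile of the EBF1 wt fold among shared sites (x axis, 4 is the highest), 1 panel per fetal liver library. Points are single shares without error bars. With dC, lost sites went from 49.8% in the lowest quartile to 22.5% in the highest, and kept sites from 90.7% to 83.3%.

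Sites that gained Brg1 with EBF1 wt over the empty vector, in fetal liver cells, gave the same order of kept-minus-lost differences. Of the kept sites, 1597 had a peak with wt and none with the empty vector. Of these, 87.7% (85.9 to 89.2%) also had a peak with dC, 94.99% (93.8 to 96.0%) with dPLD and 92.0% (90.6 to 93.3%) with F-GATA3. Of 616 such lost sites, 308 had a peak with dC (50.0%, 46.0 to 54.0%), 68.8% had one with dPLD and 81.7% with F-GATA3. The differences were 37.7 points with dC (33.4 to 41.9), 26.2 with dPLD (22.4 to 30.0) and 10.4 with F-GATA3 (7.20 to 13.9). The wt and empty-vector libraries chose these sites, and the shares are of the other 3 libraries.

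The commonest pattern over the 5 fetal liver lists was a peak with every EBF1 form and none with the empty vector, at 1309 kept sites (50.5%; lost sites 26.5%). The next was a peak in all 5 lists, at 827 kept sites (31.9%; lost sites 6.56%). Together these patterns left 457 kept sites at which the fetal liver libraries did not all hold Brg1 with EBF1. A peak in no list was found at 101 kept sites (3.90%) and at 251 lost sites (24.2%). A peak with wt, dPLD and F-GATA3 and not with dC or the empty vector was found at 108 kept sites (4.17%; lost sites 10.3%). A peak with wt and F-GATA3 alone was found at 48 kept sites (1.85%; lost sites 10.9%). Both of the last patterns took a smaller share of kept than of lost sites.

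**Figure D3:**
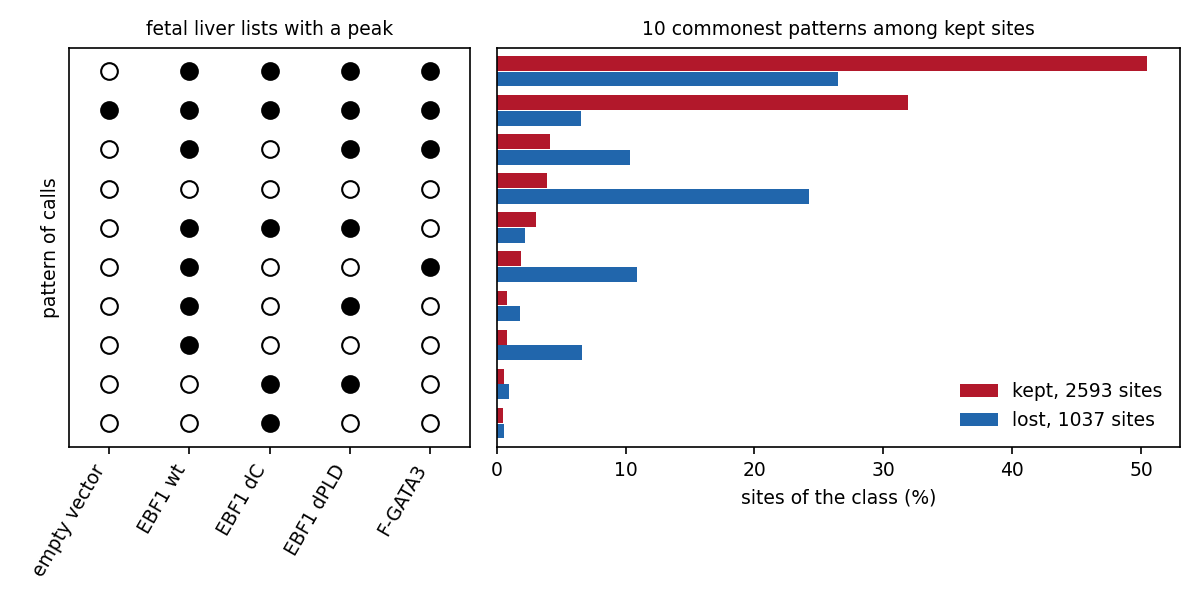
The 10 commonest patterns of fetal liver Brg1 calls at kept sites: filled circles mark lists with a peak (left), and bars give the percent of kept and of lost sites with that pattern (right, x axis in percent). Kept sites were mostly in the top 2 patterns (50.5% and 31.9%), whereas 24.2% of lost sites had no fetal liver peak.

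Where 2 fetal liver libraries differed at a kept site, the split was uneven. Its direction between wt and dC was not particular to kept sites. Over all EBF1 wt peaks the wt list was called at 66.9% and the dC list at 52.5%, and over lost sites at 66.7% and 38.9%. Over all peaks dPLD was called at 59.2% and F-GATA3 at 62.9%. Brg1 was called with wt and not dC at 201 kept sites and with dC and not wt at 34 (85.5% of the differing sites on the wt side, 80.4 to 89.8%), although the dC list was the longer. The dPLD library had a peak at 140 sites without one in the dC library, and the reverse held at 28. The wt library had one at 132 sites without one in the F-GATA3 library, and the reverse held at 22. Between wt and dPLD the counts were 84 and 29. F-GATA3 and dC differed at 293 sites, the most of any pair in which both libraries had an EBF1 form, against 113 for wt and dPLD. Of these, 175 had a peak with F-GATA3 and not dC and 118 the reverse, so 59.7% (53.9 to 65.4%) were on the side of F-GATA3, and 70.1% were with lists of equal length. Each of these 5 splits had its point value on the same side in all 7 alternatives tried for it. The interval included 50% for wt over dPLD at −log10 q of at least 20 (64.3%, 35.1 to 87.2%). It also did for F-GATA3 over dC at that threshold (53.6%, 33.9 to 72.5%) and at −log10 q of at least 10 in A-MuLV Brg1 (55.9%, 43.3 to 67.9%). Between dPLD and F-GATA3 the counts were 125 and 70 (64.1% on the side of dPLD, 56.9 to 70.8%), and this split was 54.2% (48.7 to 59.7%) with lists of equal length and turned to 39.7% when summits had to lie within 200 bp. The empty vector had a peak without one in the wt library at 2 kept sites.

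Single sites show the patterns. Near Cux1, which encodes a homeodomain transcription factor, a kept site (chr5:136589181-136590306, 22147 bp from the gene) had an EBF1 wt fold of 71.5 and fetal liver Brg1 folds of 19.9 (wt), 5.41 (dC), 8.79 (dPLD) and 4.74 (F-GATA3), with no empty-vector peak. Near Sh2b3, an adaptor that limits cytokine signalling, a kept site within the gene (chr5:121833724-121834389) had a peak in all 5 lists, with folds from 5.43 (empty vector) to 20.4 (wt). These are the patterns of most kept sites. Within Adap1, chr5:139306085-139306919 had Brg1 with wt (6.37), dPLD (6.98) and F-GATA3 (4.99) and not with dC or the empty vector. Within Spata48, chr11:11500951-11501629 showed the same pattern at an EBF1 wt fold of 71.7. Within Vasn, chr16:4640942-4641594 had Brg1 with wt (7.22) and F-GATA3 (8.41) alone, and within Cmip, chr8:117387449-117388144 had it with wt (8.07) and F-GATA3 (6.83) alone. The sites within Adap1, Spata48, Vasn and Cmip had A-MuLV Brg1 peaks with dC (folds of 6.56, 19.3, 4.49 and 7.93) and no fetal liver peak with dC. The smallest −log10 q was 1.33 in the A-MuLV Brg1 dC list and about 10 in the fetal liver dC list, so these calls were made at unlike thresholds.

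Kept sites with Brg1 with wt and not with dC in fetal liver cells (201) had a higher median EBF1 wt fold (13.3) than all kept sites (10.9), and 8 of the 148 with a listed start lay within 1 kb of it (5.41%, 2.36 to 10.4%). By quartile of EBF1 wt fold among the kept sites, the dC library had a peak at 91.1%, 89.0%, 87.8% and 81.9% from lowest to highest. The empty vector went the same way, from 37.6% to 26.9%. With dPLD it was 93.5% (91.4 to 95.3%), 92.0%, 93.1% and 88.6% (85.9 to 90.9%). The wt library was between 93.2% and 94.6% in every quartile and F-GATA3 between 87.0% and 92.0%. The highest quartile thus had fewer dC, dPLD and empty-vector peaks than the lowest, with intervals that did not overlap, whereas the intervals with wt and with F-GATA3 overlapped. By quartile of the A-MuLV Brg1 dC fold, the dC library had a peak at 78.3%, 85.5%, 94.0% and 92.5%, and the wt library at 89.9%, 93.6%, 96.9% and 95.5%. Kept sites with a low A-MuLV Brg1 dC peak were thus less often called in each of these fetal liver libraries.

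Fetal liver Brg1 summits lay close to the EBF1 summits of the A-MuLV cells. Over the 1309 kept sites called with every EBF1 form and not with the empty vector, the median distance was 52 bp (wt), 63 bp (dC), 67 bp (dPLD) and 49 bp (F-GATA3). Between 71.9% (dC) and 77.3% (F-GATA3) of these summits were within 200 bp. Over the 827 kept sites called in all 5 lists, the empty-vector summit was within 200 bp at 49.7% (46.2 to 53.2%), with a median distance of 203 bp. At the same sites the wt summit was within 200 bp at 67.5% (64.2 to 70.7%; median 93 bp) and the dC summit at 62.0% (58.6 to 65.4%; median 116 bp). Brg1 summits at these sites thus lay farther from the EBF1 position in the empty-vector library. Its peaks there were narrower (median width 1381 bp, against 2245 bp with wt and 2469 bp with dC). Empty-vector peaks at kept sites also stood lower in their own list (percentile 44.3, against 82.7 with wt). At the 68 lost sites called in all 5 lists, 29.4% of empty-vector and 41.2% of wt summits were within 200 bp, with overlapping intervals. Whether peak height, peak width, cell stage or the lack of EBF1 underlies the offset was not tested. Fetal liver peaks were wide enough to hold several kept sites: the 2435 sites called with wt lay in 2316 distinct peaks.

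**Figure D4:**
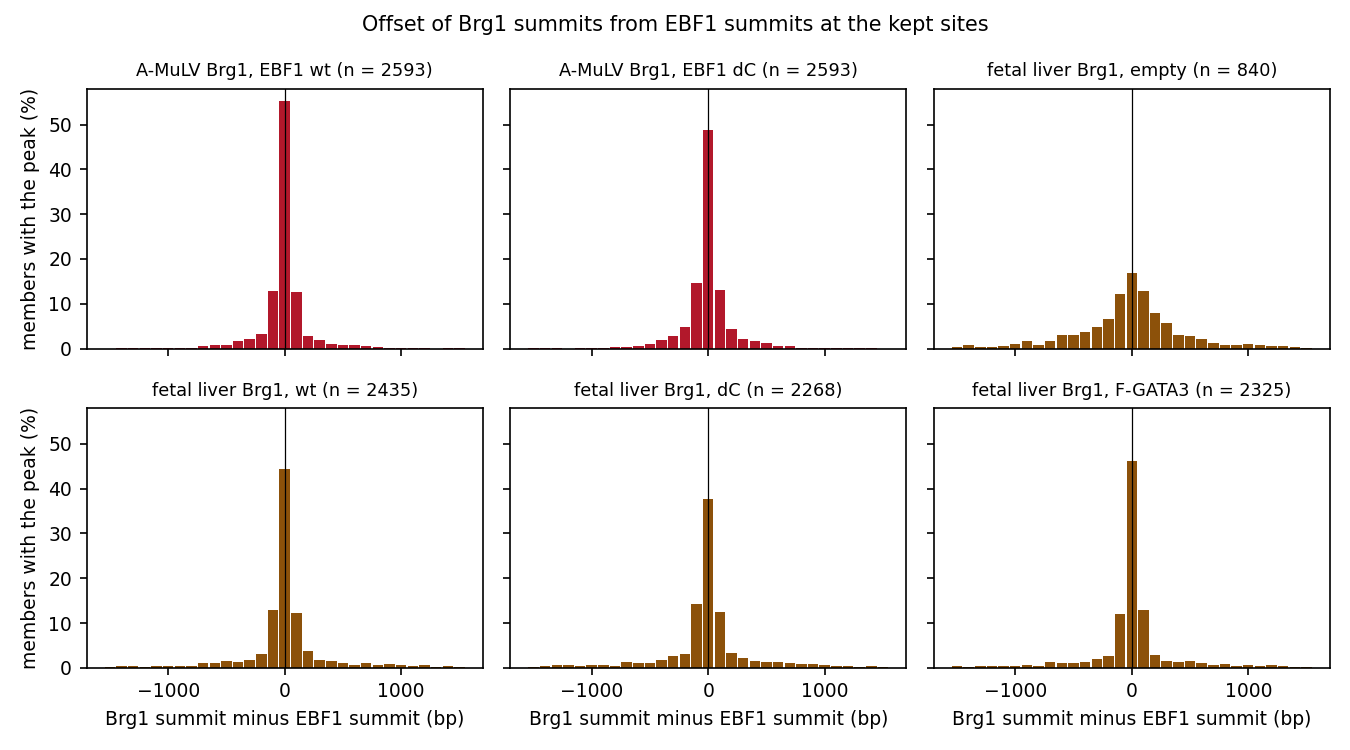
Distance from the EBF1 wt summit to the Brg1 summit (x axis, bp, 100 bp bins, offsets beyond 1500 bp not drawn) as a percent of the kept sites called in each list (y axis), for both A-MuLV and 4 of the fetal liver Brg1 lists. The empty-vector summits spread most widely around 0, and the summits with an EBF1 form gather at 0.

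Kept sites lay at gene starts more often than lost sites did. The start table held 17492 of the 21887 protein-coding genes (79.9%), and positions were taken for the 2043 kept sites whose nearest protein-coding gene was in it. Of these, 593 had their summit within 1 kb of a start (29.0%, 27.1 to 31.0%), against 72 of 796 lost sites (9.05%, 7.14 to 11.3%) and 43 of 669 sites without A-MuLV Brg1 (6.43%). The difference between kept and lost sites was 20.0 points (17.1 to 22.7), and 16.2% of all EBF1 wt peaks lay so close. Counted from either end of a gene, which needs no strand and covers all sites, it was 26.3% of kept and 11.4% of lost sites. Gene bodies held 56.9% of kept and 57.3% of lost sites, so the classes differed in their share at starts and not, beyond counting error, in their share within genes. The gene table gives no exons, introns or UTRs.

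Kept sites at starts and away from them differed in the fetal liver lists, most of all without EBF1. The empty-vector list had a peak at 50.8% (46.7 to 54.9%) of the 593 kept sites within 1 kb of a start and at 24.8% (22.6 to 27.1%) of the 1450 farther away. With dC it was 98.3% and 83.9%, with wt 99.2% and 91.7%, with dPLD 99.0% and 88.8% and with F-GATA3 96.1% and 87.0%. Read the other way, 45.5% of kept sites with an empty-vector peak lay within 1 kb of a start against 21.1% of those without (difference 24.4 points, 20.0 to 28.7). Of the kept sites with no fetal liver peak at all, 2 of 78 did (2.56%, 0.312 to 8.96%). Of those called with wt and F-GATA3 alone, 0 of 37 did (upper limit 9.49%).

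B-lineage genes were the list with the largest share of genes near a kept site. A kept site lay within the gene body extended by 10 kb at 17 of 26 B-lineage genes and at 10 of 18 genes of pre-B-cell receptor signalling, against 2292 of all 21887 protein-coding genes (10.5%). Lost sites lay near 6 and 1 of these genes, against 4.27% of all genes. The kept sites near B-lineage genes were 26 in number, and each was called in all 4 fetal liver libraries with an EBF1 form, as were 2136 of all 2593 kept sites (82.4%, 80.9 to 83.8%). Among the 17 genes were Ebf1, Pax5, Pou2af1, Cd79a, Cd79b, Igll1, Vpreb1, Vpreb2, Cd22, Bank1, Bst1, Foxo1, Ikzf1, Ikzf3, Bach2 and Irf4. The 9 without one were Blk, Blnk, Cd72, Fcrla, Rag1, Rag2, Dntt, Spib and Cd24a. Genes of the list differ in length and some share a site, so the count is a description. The peak lists hold no expression, and the labelled cell types could not be checked beyond this.

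**Figure D5:**
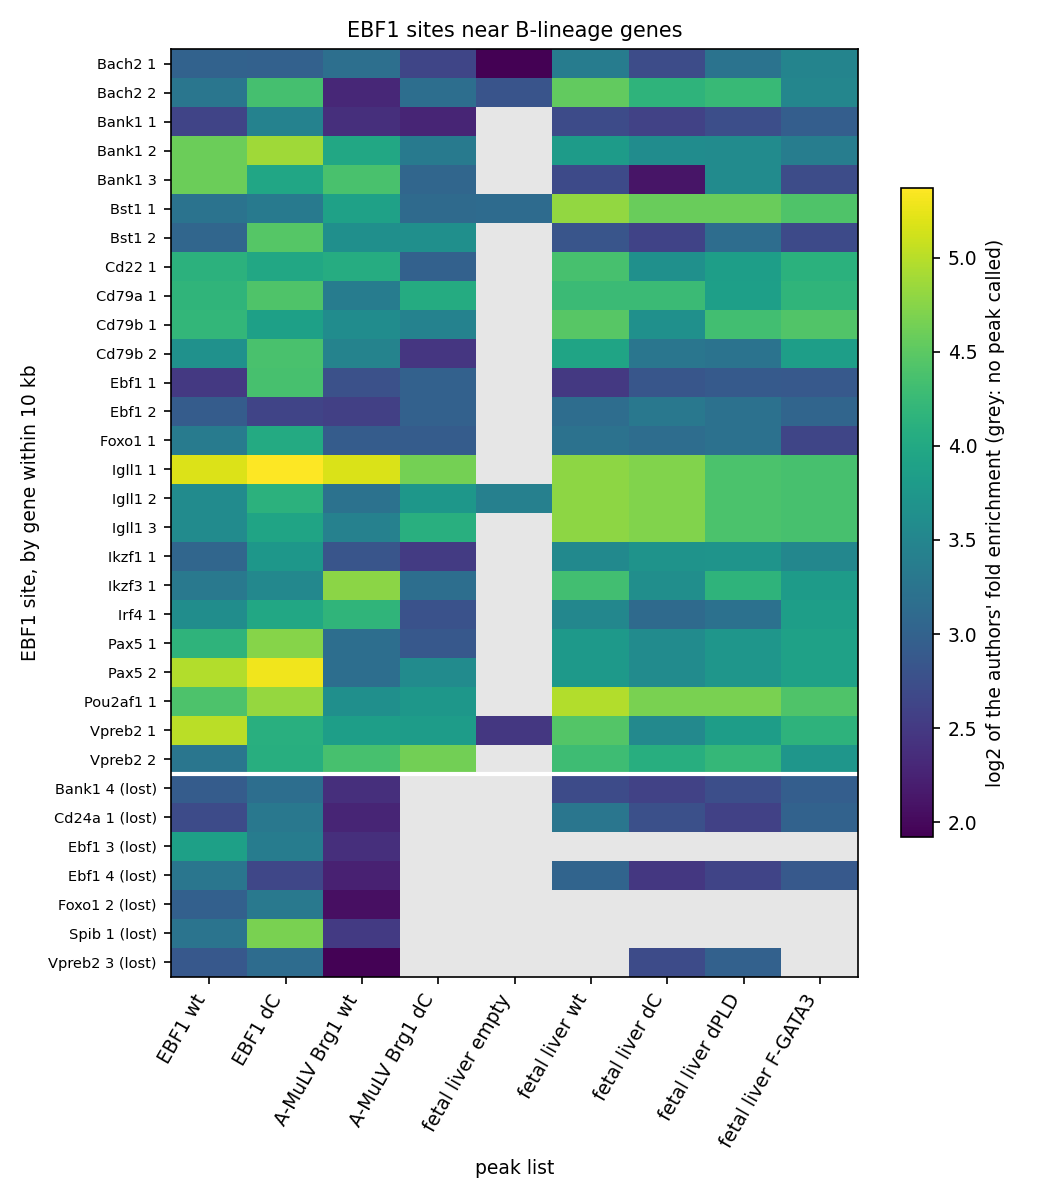
Kept (above the white line) and lost (below it) EBF1 sites within 10 kb of B-lineage genes (y axis, numbered by gene, a site near Igll1 and Vpreb1 drawn once, not all sites shown) in the 9 peak lists (x axis). Colour is log2 of the authors' fold enrichment, to be read within a column, and grey marks no called peak. Every kept site drawn was called with each EBF1 form in fetal liver, and the empty-vector column is grey at most of them.

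The surrogate light chain genes Igll1 and Vpreb1, whose products pair with the heavy chain in the pre-B-cell receptor, shared 3 kept sites. The strongest, chr16:16863873-16864468, had its summit 219 bp before the Igll1 start, in the stretch printed above, with folds of 36.5 (EBF1 wt), 41.3 (EBF1 dC), 36.1 (A-MuLV Brg1 wt) and 25.1 (A-MuLV Brg1 dC). In the fetal liver lists its Brg1 folds were 27.6 (wt), 26.3 (dC), 21.0 (dPLD) and 20.7 (F-GATA3), with no empty-vector peak. The site before Vpreb1, chr16:16869178-16869507, had the same fetal liver folds, because 1 wide peak spanned all 3 sites in each of these lists. The third, chr16:16865570-16865908, was the one that also had an empty-vector peak, with a fold of 10.7. Vpreb2, the paralogue of Vpreb1, had 2 kept sites and 1 lost site. Reads of near-identical paralogues can be split between them, so values at Vpreb1 and Vpreb2 are uncertain.

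Genes of the B-cell receptor and the co-receptor Cd22 had kept sites without an empty-vector peak. The Cd79a site, chr7:24897137-24897578, covers the start of the gene for the Igα signalling chain. Its fetal liver folds were 19.3 (wt), 19.3 (dC), 14.6 (dPLD) and 18.1 (F-GATA3). Near Cd79b, which encodes Igβ, 2 kept sites were called, at chr11:106308141-106308738 and chr11:106314407-106314885. The first had folds of 22.3 (wt), 12.6 (dC), 20.0 (dPLD) and 21.6 (F-GATA3). The Cd22 site, chr7:30878884-30879324, around the palindrome shown above, had 20.7 (wt), 12.6 (dC), 14.5 (dPLD) and 17.4 (F-GATA3). Cd22 is an inhibitory co-receptor. Brg1 was thus called at each of these 3 genes with every form and at none with the empty vector.

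Transcription factor genes of the programme were alike. Pou2af1, which encodes an Oct coactivator of B cells, had a kept site 475 bp before its start (chr9:51213019-51213430) with 31.3 (wt), 25.4 (dC), 25.5 (dPLD) and 21.3 (F-GATA3). Pax5, the B-lineage commitment factor, had 2 kept sites within the gene, chr4:44705136-44705598 and chr4:44705955-44706363, under 1 fetal liver peak of 13.8 (wt), 12.0 (dC), 13.3 (dPLD) and 14.8 (F-GATA3). Foxo1, which encodes a factor needed for early B-cell genes, had a kept site at its start, chr3:52268106-52268464, with 9.31 (wt), 8.92 (dC), 9.26 (dPLD) and 6.23 (F-GATA3). Irf4 (chr13:30750886-30751571) and Ikzf3 (chr11:98459214-98459653) each had 1, with wt folds of 11.4 and 20.0. None of these had an empty-vector peak. Bach2, which encodes a repressor that restrains plasma-cell fate, differed: both of its kept sites had an empty-vector peak, with folds of 3.78 and 7.07.

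Ebf1 itself had 2 kept and 2 lost sites. The kept sites, chr11:44893079-44893436 within the gene and chr11:45008072-45008404 at its end, had no empty-vector peak and wt folds of 5.62 and 8.91. A lost site, chr11:45002003-45002376, was also called in fetal liver with all 4 forms, and the other, chr11:44911304-44911711, in no fetal liver library. Smarca4, which encodes Brg1, had 1 kept site within the gene (chr9:21625316-21625863) with 17.2 (wt), 11.8 (dC), 15.8 (dPLD) and 13.3 (F-GATA3) and no empty-vector peak. Gata3 had no kept or lost site.

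In the list of pre-B-cell receptor signalling, the 10 genes with a kept site were Btk, Lyn, Plcg2, Vav1, Pik3ap1, Pik3cd, Ptpn6, Inpp5d, Prkcb and Nfatc1. Plcg2, the phospholipase of the pathway, had 4 kept sites, all called with every EBF1 form and 2 with the empty vector. Pik3cd, a PI3-kinase catalytic subunit, had 3 kept sites, of which 2 were called with dC and 3 with wt. Inpp5d, the phosphatase SHIP that opposes it, had 3, and all were called with every form. The site at Ptpn6, the phosphatase SHP-1, shown above with its match 1 base off, had 6.37 (wt), 7.60 (dC), 7.26 (dPLD) and 5.50 (F-GATA3). Nfatc1 was the exception of the list: its kept site had an EBF1 wt fold of 41.3 and A-MuLV Brg1 folds of 15.8 (wt) and 5.18 (dC), and no fetal liver peak.

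Genes of other lineages had fewer kept sites. A kept site lay near 4 of 16 T-lineage genes (Tcf7, Notch1, Notch3 and Il2ra), 1 of 12 innate lymphoid and NK genes (Id2), 2 of 14 myeloid genes (Itgam and Spi1) and 1 of 10 erythroid and megakaryocyte genes (Klf1). It was 1 of 12 progenitor genes (Erg), 0 of 11 stromal genes, 6 of 16 BAF and PBAF subunit genes and 2 of 14 ubiquitously expressed genes (Rpl13a and Ywhaz). All 4 T-lineage genes had a kept site with an empty-vector peak, as did 5 of the 17 B-lineage genes and 977 of the 2292 protein-coding genes near a kept site (42.6%). The innate lymphoid and NK, myeloid, erythroid and progenitor lists held 1 or 2 genes near a kept site each, too few to compare. None of those genes had a kept site with an empty-vector peak. The site near Klf1, chr8:84908254-84908745, lay 219 bp before the start of another gene, Dnase2a. Near Spi1, which encodes PU.1, a factor of myeloid cells and B-cell progenitors, the kept site lay 3695 bp from the gene. That site, chr2:91078440-91078969, had 14.0 (wt), 14.5 (dC), 14.1 (dPLD) and 13.7 (F-GATA3). At Erg, a progenitor factor, chr16:95428231-95428713 had 25.1 (wt), 15.2 (dC), 14.6 (dPLD) and 20.2 (F-GATA3). The site at Il2ra, the interleukin 2 receptor chain, with the higher EBF1 fold (chr2:11654552-11654915) had Brg1 with dC (4.34) and F-GATA3 (8.56) and not with wt. With gene bodies extended by 50 kb, the counts became 3 for innate lymphoid, 5 for myeloid, 2 for erythroid, 3 for progenitor, 10 for BAF and PBAF and 5 for ubiquitously expressed genes, and 21.5% of all genes had a kept site. With each site given to its nearest protein-coding gene alone, they were 4 for T-lineage, 2 for innate lymphoid, 3 for myeloid and 0 for erythroid genes. For progenitor genes that count was 3, for BAF and PBAF 5, for ubiquitously expressed genes 3 and for B-lineage genes 17.

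Among BAF and PBAF subunit genes, kept sites lay near Smarca4, Smarcd1, Smarcd2, Arid1a, Arid1b and Arid2. Arid1a, a DNA-binding subunit of BAF, had 2 kept sites within 10 kb, both in all 5 fetal liver lists. Of these, the site with the higher EBF1 wt fold, chr4:133672038-133672585, lay 294 bp after the start of another gene, Pigv. Arid1b, the paralogue of Arid1a, had 2 kept and 2 lost sites, and at chr17:5179471-5179824 Brg1 was called with wt (8.41) and F-GATA3 (6.67) alone.

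The kept sites with the highest EBF1 wt fold were not those of B-lineage genes. The top 10, at folds of 59.3 to 89.6, were nearest to Mib1, Srd5a2, Pet117, Sh3gl3, Spata48, Cux1, Myl10, Actb, Slc25a26 and Cdk17. Of these 10, 8 had a wt peak in fetal liver, and 4 had one with dC (Pet117, Cux1, Myl10 and Slc25a26). The site named for Mib1 lay 99934 bp from that gene. It had A-MuLV Brg1 folds of 63.4 (wt) and 12.4 (dC) and a fetal liver peak with wt alone (7.10). The kept sites with the highest A-MuLV Brg1 dC fold were within Slc14a2 (54.1), Srd5a2 (51.3), Cdk17 (39.4) and Paxip1 (37.0) and near Pde8a (26.9). The first 4 had no peak in any fetal liver list. At Pde8a (chr7:81196326-81197193), fetal liver folds were 18.2 (wt), 13.4 (dC), 17.3 (dPLD) and 14.3 (F-GATA3). These few sites were not typical of high peaks: the wt library was called at 93.2% of the top quartile by EBF1 wt fold and at 95.5% of that by A-MuLV Brg1 dC fold, against 93.9% of all kept sites.

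Some kept sites were clustered: 536 (20.7%) had another within 10 kb, and the 2593 sites had 1968 distinct nearest genes. Cmip and Msi2 had 7 kept sites each within 10 kb, and Zfp36, which encodes an RNA-binding protein that speeds mRNA decay, had 6. Zfp36 is 2445 bp long, whereas Msi2 spans 378925 bp and also had 3 lost sites. A site can count for several genes within 10 kb: Plekhg2 had 5 kept sites, with the same highest EBF1 wt fold (17.9) as Zfp36.

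The rule has a sharp edge that few sites were near. The median kept site shared 303 bp with the peak that overlapped it least, and 23 kept sites shared under 50 bp. Those just inside, at Mier3, Spry2 and Gclc, shared 1 bp with a Brg1 dC peak. Those just outside, at Edaradd, Fut8 and Ubxn8, missed a Brg1 peak by 1, 2 and 6 bp. A total of 96 EBF1 wt peaks came within 200 bp of meeting the rule.

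The palindrome of EBF1 was commoner in the promoter windows of kept sites than in other windows, but the few windows of lost sites held it in a larger share. Of all 32851 windows 297 held it (0.904%), and of the 32211 that overlapped no EBF1 wt peak 0.692%. Of 527 windows overlapping a kept site, from 484 genes, 56 held it (10.6%, 8.13 to 13.6%), 9.93 points above windows without an EBF1 peak (7.58 to 12.9). Of 33 windows overlapping a lost site 8 held it (24.2%, 11.1 to 42.3%), and of 30 at sites without A-MuLV Brg1 6 did (20.0%, 7.71 to 38.6%). The kept windows were thus 13.6 points lower than the lost ones, with an interval from −30.6 to −1.84 points. Windows of 1 gene or of neighbouring genes can overlap, so these intervals are too narrow. Where a window held the summit of a kept site, the share was 17.7% (50 of 282). With 1 base of the arms free, 50.5% of the kept windows had a match (46.1 to 54.8%), against 16.5% of all windows. It was 60.6% of the lost windows (42.1 to 77.1%) and 56.7% of those at sites without A-MuLV Brg1 (37.4 to 74.5%). These intervals overlapped that of the kept windows.

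The palindromes in kept windows lay near the EBF1 summit. Palindromes were counted once per window, so 1 that lay in overlapping windows, as at Arpc5 and Rgl1, was counted more than once. Of 58 counted in this way 57 were inside the peak and 46 within 50 bp of its summit, at a median distance of 14 bp. The number of distinct palindromes is smaller. At Hdlbp, Mphosph8, Ppp1r16b and Hip1r, printed above, the centre was 1.5, 6.5, 13.5 and 24.5 bp from the summit. The Hdlbp site, chr1:93478063-93478599, had an EBF1 wt fold of 38.9 and fetal liver folds of 5.94 (wt), 4.96 (dC), 6.56 (dPLD), 5.45 (F-GATA3) and 6.10 (empty vector). The Mphosph8 site, chr14:56667903-56668435, had no empty-vector peak and 11.5 (wt), 9.05 (dC), 8.76 (dPLD) and 10.5 (F-GATA3). Both carried Brg1 with each EBF1 form, and Hdlbp also without EBF1. Of the 56 kept windows with the palindrome 54 had Brg1 with dC in fetal liver and 30 with the empty vector (53.6%), and of the 471 without it 467 and 257 (54.6%). Fetal liver Brg1 at kept promoters thus did not differ with the palindrome beyond a few windows.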

How the data were processed

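The series holds 14 mouse samples, 9 ChIP-seq libraries and 5 inputs, and the 9 peak lists were used. Per the submitters' processing notes, the tools were MACS2 2.1.2, Bowtie2 2.3.3.1, deepTools 3.3.1 and SAMtools 1.9, and the build GRCm38. For the peak threshold, the matching of inputs and duplicate reads, the setting is not given in the sources used here. Crosslinking was with EGS and 2% formaldehyde (fetal liver), EGS and 1% (A-MuLV Brg1) or 1% formaldehyde alone (EBF1), per the labels' protocols. The authors deposited for each peak its base positions, a score, the fold enrichment (a ratio to the local background) and −log10 p and −log10 q at the summit. The smallest −log10 q was about 10 in 7 lists, but 1.37 (wt) and 1.33 (dC) for A-MuLV Brg1.

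From these, overlaps of at least 1 bp were counted with Python 3.11.15, pandas 2.3.3 and numpy 2.4.6, and the code was checked on simulated intervals and against bedtools 2.31.1, which gave the same 2593 sites. Shares carry exact Clopper-Pearson 95% intervals (scipy 1.17.1), differences of shares Newcombe intervals. Sites of 1 library are not replicates. Gene intervals and promoter windows came from RefSeq tables for GRCm38.p6, and no window on chromosome 18 was used. Windows printed for the palindrome were limited to protein-coding genes after the values had been seen.

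The members, the 10 gene lists (149 genes) and the alternatives were chosen with earlier results of these data known. Named sites were the highest by EBF1 wt fold (10, taken 1 per nearest gene), by A-MuLV Brg1 dC fold (5), within each gene list (4, or 12 for B-lineage) and within the commonest fetal liver patterns (3), with the 3 genes with most members, the sites at the edge of the rule, and Ebf1, Gata3 and Smarca4. A result for 1 named gene is not reported here. Further sites of B-lineage and signalling genes were named after their values had been seen.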

Additional observations from a re-analysis of the deposited data

How the results depend on the processing

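No paired analysis was possible because each group had 1 library, and no library could be left out. Of 117 shares, differences and splits recomputed under 7 alternatives for the site rule or the lists and 1 for position, 55 stayed within the 95% interval of the reported value, 61 moved outside it and 1 turned. Every difference between kept and lost sites stayed above 0, and the dC library had the largest value in all 8, although its interval overlapped that of dPLD with lists of equal length (49.8 against 47.4 points) and with the fetal liver lists alone so held (50.9 against 48.8). Within quartiles of the EBF1 dC fold (added after seeing the data) the dC difference was 44.5 to 49.4 points and the dPLD difference 33.3 to 43.0 points. The number of kept sites was 312 with a −log10 q of at least 20 everywhere and 1101 with one of at least 10 in the A-MuLV Brg1 lists (added after seeing the data). At −log10 q of at least 20 the shares were 18.6% (empty vector), 91.7% (wt), 90.4% (dPLD) and 86.9% (F-GATA3), the differences 11.0, 6.29, 25.2 (dC), 16.7 and 6.94 points, and the splits 64.3% (wt over dPLD) and 53.6% (F-GATA3 over dC). At −log10 q of at least 10 in A-MuLV Brg1, the shares were 96.7% (wt), 93.0% (dC), 95.7% (dPLD), 93.7% (F-GATA3) and 38.1% (empty vector), the differences 12.3, 28.3, 20.4, 11.9 and 16.5 points in that order, and the splits 92.3% (wt over F-GATA3), 91.7% (dPLD over dC) and 76.2% (dPLD over F-GATA3). With lists of equal length the shares were 86.9% (wt), 76.0% (dC), 84.4% (dPLD) and 83.2% (F-GATA3), the differences 36.2 (wt), 47.4 (dPLD) and 32.2 (F-GATA3) points, and the splits 63.7% (wt over dPLD), 67.9% (wt over F-GATA3), 70.1% (F-GATA3 over dC) and 54.2% (dPLD over F-GATA3). With the fetal liver lists alone held to equal length (added after seeing the data), the shares were 86.2, 75.3, 83.7 and 82.7%, the differences 39.0, 48.8 and 34.5 points and the splits 63.8, 66.4, 70.6 and 53.6%, in the same orders. With summits within 200 bp the shares were 78.7% (wt), 68.5% (dC), 72.6% (dPLD), 75.9% (F-GATA3) and 17.5% (empty vector), the differences 12.9 (empty vector), 42.6 (dC) and 35.0 (dPLD) points, and the splits 78.8% (wt over dC), 60.5% (wt over F-GATA3), 64.4% (dPLD over dC), 68.0% (F-GATA3 over dC) and 39.7% (dPLD over F-GATA3), which turned. With an overlap of 50% of the shorter peak the empty-vector share was 30.3% and its difference 21.9 points. Away from starts that difference was 19.2 points (added after seeing the data). Taking the dC EBF1 peak as the site moved none of these values outside its interval. A window of 5 kb put 42.0% of kept sites at a start, and either end of a gene 26.3% within 1 kb (added after seeing the data). The palindrome with T or A as the first base between the arms was in 7.02% of kept windows and with 1 base of the arms free in 50.5%. Why values moved was not tested beyond the smaller number of peaks in the stricter lists. Depth is unknown, which limits what the absence of a peak shows.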
